A study of Homo sapiens with 12 samples.

Results

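The genes described here were 31 genes of cholesterol and fatty acid synthesis and of their sterol control, chosen by name among the coding transcripts of the deposited tables. All 31 had at least 1 coding interval, of 18651 coding genes in the series. The assay was SLAM-seq, applied to 22Rv1, a human prostate cancer cell line, in 12 libraries, 3 in each of 4 groups. Every group, the vehicle controls included, carried SF3B1 with the substitution C1111S, introduced by gene editing. SF3B1 is a subunit of the SF3b complex, which recognises the branch site in splicing. The labels do not say whether the edited line was a clone or a pool. The control group received DMSO at 0.1% by volume. Another group received WX-02-23 at 20 µM for 3 h and another WX-02-43 at 20 µM for 3 h, both known only by code names and termed stereoprobes in the labels. The remaining group received PladB (pladienolide B, a splicing inhibitor that binds SF3b) at 10 nM for 3 h. All groups then received 4-thiouridine at 100 µM for 1 h. This uridine analogue enters RNA as it is made, and once alkylated it makes sequencing show a C at a genomic T. Reads carrying at least 1 such conversion are T>C reads, and the labelled share of a gene is the percentage of its reads that are T>C reads. Libraries without 4-thiouridine are not analysed here, so T>C reads that arise from sequencing errors were not subtracted. Since no label states that the 3 libraries of a group came from separate cultures, p-values here speak only of the spread among these libraries, which may be technical.

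Cholesterol is built from acetyl-CoA through mevalonate, isoprenoid diphosphates, squalene and lanosterol, and fatty acids are built from the same acetyl-CoA. Cells match the supply to demand mainly by transcription: when sterol in the endoplasmic reticulum is low, SCAP escorts the SREBP proteins, encoded by SREBF1 and SREBF2, to the Golgi, where they are cut to release transcription factors. When sterol is high, the INSIG proteins hold SCAP back.

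SREBPs act at promoters together with NF-Y and Sp1, so promoter windows were searched for a sterol regulatory element of the form TCACNCCAC, for the NF-Y box CCAAT and for the Sp1 box GGGCGG, each on both strands, with overlapping matches of different motifs each counted. The windows, from RefSeq on GRCh38.p14, ran from 250 bases before to 50 after a gene's start, and 27 of the 31 members had 38 of them. FASN, ACAT2, SQLE and FDFT1 had none. Some members had more than 1 window, and some of those overlap, so that a match can count in each. CCAAT was present in 24 of the 38 member windows (63.2%), against 34.6% of all 35116 windows. GGGCGG was present in 33 member windows (86.8%), against 45.0% of all windows. Counted by gene, 20 of the 27 members had CCAAT in a window and 25 had GGGCGG. TCACNCCAC was found in 1 member window (2.63%), that of SREBF2, against 1.13% of all windows. Windows are shown for the member that rose in both read measures after PladB (MSMO1), for that with the largest rise in all reads (FDPS), for SREBF2, for the member that differed between the stereoprobes (HMGCS1, of its 2 windows that with CCAAT) and for a member that fell in every measure (LBR). They lie at chr4:165327419-165327718 (plus strand), chr1:155308616-155308915 (plus), chr22:41832855-41833154 (plus), chr5:43313363-43313662 (minus) and chr1:225428772-225429071 (minus), and capitals mark the matches on either strand.
MSMO1: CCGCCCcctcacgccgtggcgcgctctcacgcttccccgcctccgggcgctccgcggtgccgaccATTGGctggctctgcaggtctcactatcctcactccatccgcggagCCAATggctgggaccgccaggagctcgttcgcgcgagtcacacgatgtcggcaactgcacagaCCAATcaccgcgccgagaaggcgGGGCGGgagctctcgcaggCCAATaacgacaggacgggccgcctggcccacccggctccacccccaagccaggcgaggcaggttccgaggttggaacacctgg
FDPS: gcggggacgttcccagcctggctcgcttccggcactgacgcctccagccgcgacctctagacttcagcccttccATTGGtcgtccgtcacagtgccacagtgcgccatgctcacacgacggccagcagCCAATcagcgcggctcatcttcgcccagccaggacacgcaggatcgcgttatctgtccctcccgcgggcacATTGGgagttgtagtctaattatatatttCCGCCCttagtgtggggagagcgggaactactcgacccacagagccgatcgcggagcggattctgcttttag
SREBF2: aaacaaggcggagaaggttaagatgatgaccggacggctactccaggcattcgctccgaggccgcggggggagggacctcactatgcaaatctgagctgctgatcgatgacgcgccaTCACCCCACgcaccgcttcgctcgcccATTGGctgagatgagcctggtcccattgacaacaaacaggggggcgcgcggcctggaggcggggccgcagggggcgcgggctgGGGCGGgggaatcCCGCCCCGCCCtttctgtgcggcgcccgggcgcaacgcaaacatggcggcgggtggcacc
HMGCS1: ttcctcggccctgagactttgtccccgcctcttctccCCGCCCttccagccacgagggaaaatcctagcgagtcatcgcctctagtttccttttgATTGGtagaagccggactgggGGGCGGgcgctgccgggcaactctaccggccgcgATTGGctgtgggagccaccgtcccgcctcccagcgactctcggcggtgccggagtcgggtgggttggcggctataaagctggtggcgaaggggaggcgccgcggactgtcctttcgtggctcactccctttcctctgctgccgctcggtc
LBR: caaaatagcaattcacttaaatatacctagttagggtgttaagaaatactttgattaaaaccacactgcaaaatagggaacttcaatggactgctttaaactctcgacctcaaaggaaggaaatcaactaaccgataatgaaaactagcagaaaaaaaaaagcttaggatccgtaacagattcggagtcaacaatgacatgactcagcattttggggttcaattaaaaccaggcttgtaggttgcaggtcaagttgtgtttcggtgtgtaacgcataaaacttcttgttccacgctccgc
The MSMO1 window held 4 CCAAT and 2 GGGCGG matches, and the FDPS window 3 and 1. The SREBF2 window held 1 match of each of TCACNCCAC and CCAAT and 3 of GGGCGG. The HMGCS1 window held 2 of CCAAT and 2 of GGGCGG. No match to the 3 motifs was found in the LBR window. Windows not shown ran otherwise: that of MVK, which fell in all reads after PladB, held 5 of CCAAT and 2 of GGGCGG. Those of PMVK, CYP51A1 and SCAP, which rose in all reads, held 0 of CCAAT and 1, 1 and 4 of GGGCGG. Whether the motifs go with the changes after PladB was not tested. These matches describe the letters of the windows, and no binding was measured.

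Libraries held 12331501 to 21414162 reads on coding genes and 826620 to 2094217 T>C reads, of which the members held 51772 to 84920 and 2697 to 6114. Prostate luminal markers were detected: HOXB13 averaged 208 CPM in DMSO (CPM being reads scaled to a common library size), 197 after either stereoprobe and 281 after PladB. KRT8 averaged 361 CPM in DMSO, 370 after WX-02-23, 333 after WX-02-43 and 507 after PladB. Of the basal markers KRT5, KRT14 and TP63, only KRT14 had any read, 3 reads in 1 WX-02-23 library. The adipocyte markers ADIPOQ, PLIN1 and FABP4 had 0 reads in every library. Hepatocyte markers summed to 110 to 142 CPM in DMSO and 197 to 300 in PladB, nearly all from ALB, neuroendocrine markers to 23.5 to 32.8 and 36.1 to 41.3, and stromal markers to 10.9 to 15.0 and 12.4 to 27.9; their part in the results on PladB was not tested. In bulk libraries, fewer cells of a type and less RNA per cell cannot be told apart. The labelled share of all coding reads was 9.45% ± 0.430 in DMSO and 5.44% ± 0.191 in PladB (mean ± SD, n = 3), so changes in T>C reads are given after scaling to T>C reads. Scaling them to all reads moved the median PladB difference of all genes from -0.36 to -1.15 and left 4 of 30 members above 0 in place of 16.

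In DMSO the members were labelled less than the typical gene. The median labelled share of the 30 members that passed the filter on low T>C counts was 6.52%, against 10.1% over all 10722 genes tested, whose middle 50% ran from 5.53% to 18.2%. The highest shares, from reads pooled over the 3 DMSO libraries, were those of INSIG1 (15.5%), which holds SCAP back when sterol is high, of IDI1 (15.2%), the isopentenyl diphosphate isomerase, and of SC5D (13.2%), a desaturase of late cholesterol synthesis. The lowest were those of MVD (0.758%), the decarboxylase that ends the mevalonate steps, TM7SF2 (0.813%), a sterol reductase, and FDPS (1.20%), the farnesyl diphosphate synthase. The share of MVD, which did not pass that filter, rests on 10 T>C reads in DMSO. Over all libraries MVD had 0.862 conversions per T>C read. Even the highest member stood at percentile 69.1 of the genes tested. The FDPS interval is only 57 bases long (chr1:155290401-155290457, hg19, plus strand), and its T>C reads in DMSO, 59 in all, carried 0.847 conversions each within it, against 1.74 over all members in the same libraries. HSD17B7 is also uncertain, since 41.9% of its reads mapped to more than 1 place.

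**Figure D1:**
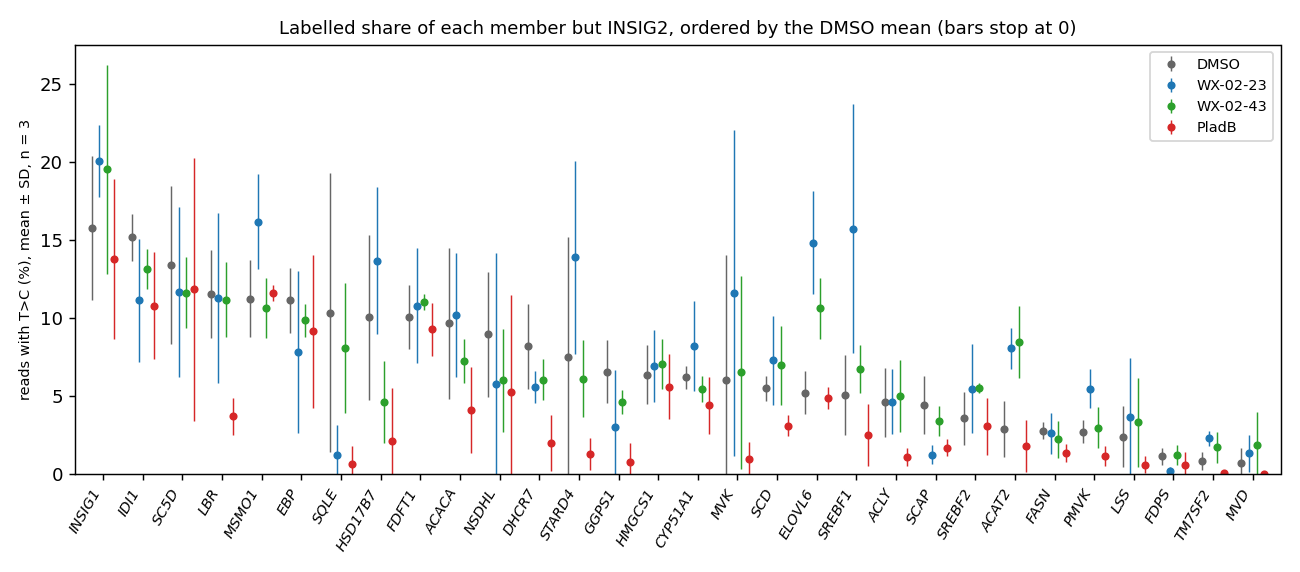
Labelled share (percentage of reads with T>C, vertical axis) of 30 members, ordered by their DMSO mean, in the 4 groups; points are means and bars SDs over 3 libraries, stopping at 0. INSIG1 and IDI1 stand highest and MVD and TM7SF2 lowest in DMSO, and the PladB points lie below the DMSO points for most members; INSIG2, with 5 to 141 reads a library, is not drawn.

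PladB against DMSO asks what inhibition of SF3b does to these transcripts. In all reads, which hold RNA made before and during the treatment, 10 of 31 members rose and 3 fell. Levels were scaled to library size, so rises and falls are relative to the other coding genes. Those that rose came from every stretch of the pathway but the squalene steps: PMVK, FDPS, CYP51A1, MSMO1, EBP, SREBF2, SCAP, ACLY, FASN and SCD, by log2 changes of 0.26 to 0.70. MVK, LBR and INSIG2 fell, by 0.68 to 2.18 on the log2 scale. In T>C reads MSMO1 and FDFT1 rose and LBR fell. In the labelled share no member rose and 4 fell, namely TM7SF2, DHCR7, ACLY and LBR.

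These counts were called by edgeR at an adjusted p under 0.05. In all reads 32.3% of members rose and 9.68% fell, where 13.9% and 16.3% of the 13178 genes tested did. The members were chosen with earlier results of these data known, so such shares only describe them. The members' median log2 change was 0.09, against -0.07 over all genes. In T>C reads 2 of 30 members rose and 1 fell (6.67% and 3.33%), where 4.72% and 5.91% of 10722 genes did, by edgeR a share near that of all genes. DESeq2 called 3 members in T>C reads, where it called 19.9% of 10055 genes with an adjusted p. In all reads it called 13 members, where it called 32% of 12904 such genes. The median T>C change of the members was 0.07, against -0.36 over all genes. In the labelled share 4 of 30 members fell (13.3%), against 11.0% of all genes, again near it, and 0 rose against 0.0280%. PladB and DMSO libraries did not overlap for 11 members above DMSO and 3 below in all reads, where 19.1% and 21.7% of genes were so placed, and for 4 and 2 in T>C reads, where 10.4% and 17.4% were. For labelled share this held for 0 members above and 8 below, against 1.14% and 33.6% of genes. Median changes in the log2 odds of T>C were -1.33 for the members and -1.30 for all genes. T>C reads scaled to all reads instead gave 0 members higher and 3 lower (LBR, ACLY and DHCR7), with medians of -0.73 for the members and -1.15 for all genes. The share of all genes called under that scaling is not reported here, so these 3 calls cannot be set against it. The T>C count fell to 1 without DMSO replicate 1 and rose to 5 without PladB replicate 2. The labelled-share count fell to 1 without DMSO replicate 1 and to 2 without DMSO replicate 2, DMSO replicate 3 or PladB replicate 3.

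The members together made up 0.405% ± 0.00593 of coding reads in DMSO and 0.399% ± 0.00362 in PladB. Their summed labelled share was 7.0%, 5.66% and 7.06% in the DMSO libraries, 6.57% ± 0.794 on average, and 4.08%, 4.44% and 4.31% in the PladB libraries, 4.28% ± 0.183. The 2 groups did not overlap. The PladB share was 0.651 times that of DMSO for the members and 0.576 times for all coding reads. With 3 libraries a group, an exact permutation test cannot give a p below 0.1.

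**Figure D2:**
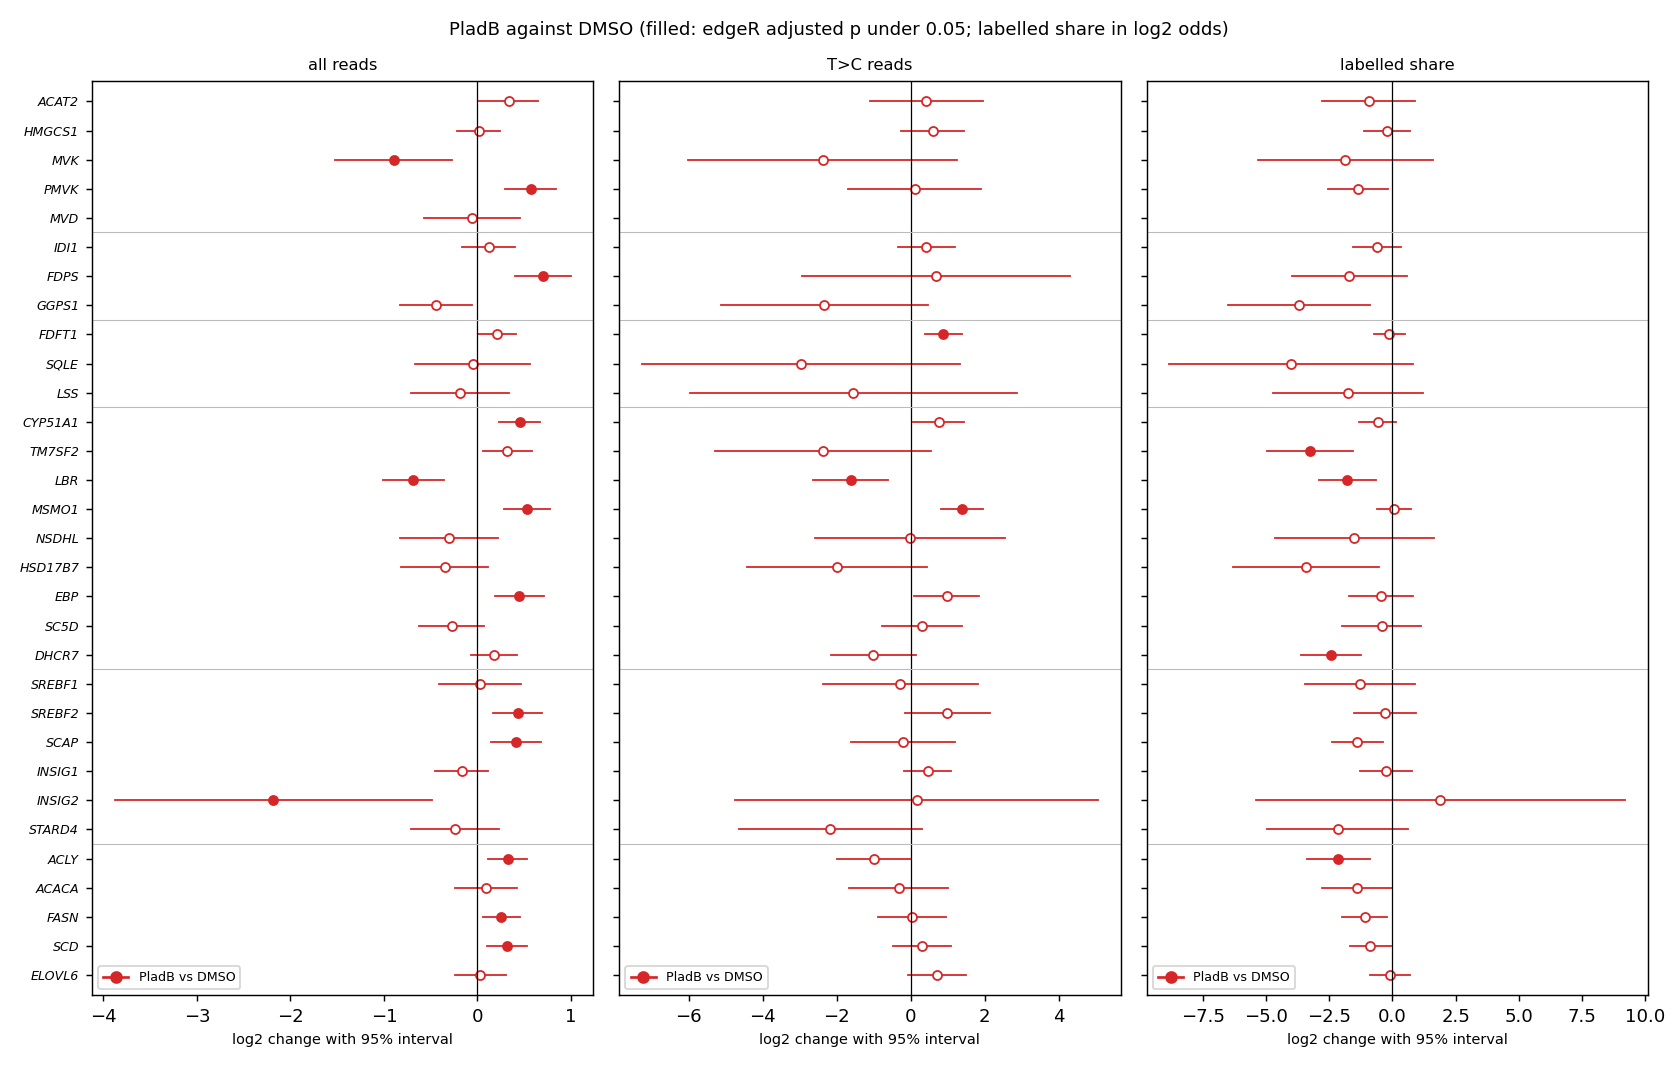
Log2 change after PladB with its 95% interval (horizontal axis) for each member, in all reads, T>C reads and the log2 odds of T>C, with grey lines between the roles from the mevalonate steps (top) to fatty acid synthesis (bottom). Filled points passed the edgeR test, 13 in all reads, 3 in T>C reads and 4 in the labelled share; of the 16 members above 0 in T>C reads, 12 lie below 0 when scaled to all reads, and MSMO1, SREBF2, EBP and FDFT1 stay above it.

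In the mevalonate steps, 1 enzyme rose and 1 fell in all reads. PMVK, which phosphorylates phosphomevalonate, stood at 85.4, 97.8 and 110 CPM in the DMSO libraries and at 138, 139 and 156 in the PladB libraries. All 3 PladB libraries were above all DMSO libraries, a log2 change of 0.57 (SE 0.14, edgeR adjusted p = 0.00108). MVK, which phosphorylates mevalonate just before it, stood at 17.7, 28.8 and 13.7 CPM in DMSO and at 10.5, 10.8 and 11.1 in PladB. The PladB libraries were all lower, a log2 change of -0.89 (SE 0.31, edgeR adjusted p = 0.0247). It did not pass when DMSO replicate 2 (-0.55, 0.25) or PladB replicate 1 (0.0618) was left out, or with only the 2 groups in the fit (0.0639). HMGCS1, the HMG-CoA synthase, stood at 171, 177 and 157 CPM in DMSO and at 182, 167 and 160 in PladB, overlapping levels with a log2 difference of 0.01 (95% interval -0.22 to 0.24). MVD had 2, 8 and 0 T>C reads in the DMSO libraries and 0 in each PladB library, of 516, 293 and 347 reads, which allows a labelled share of up to 0.581%, 1.02% and 0.865% by counting error alone. MVD was below the filter for a test in T>C reads. ACAT2, which condenses acetyl-CoA, differed by 0.33 in all reads (edgeR adjusted p = 0.105).

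Of the isoprenoid enzymes, FDPS, which makes farnesyl diphosphate, had the largest rise of any member in all reads. It stood at 99.7, 79.3 and 114 CPM in DMSO and at 151, 194 and 131 in PladB, groups that did not overlap. The log2 change was 0.70 (SE 0.15, edgeR adjusted p = 0.000226) and stayed called without any of the 6 libraries, between 0.53 and 0.83. Its T>C reads were few and uneven, with 25, 6 and 28 reads in DMSO and 2, 41 and 1 in PladB. IDI1 stood at 101, 92.7 and 103 CPM in DMSO and at 109, 108 and 105 in PladB in all reads. Those groups lay apart by a small margin, and the log2 difference of 0.12 did not pass (edgeR adjusted p = 0.576). IDI1 T>C reads stood at 143, 150 and 181 CPM in DMSO and at 208, 144 and 284 in PladB, which overlap, a difference of 0.42 that became -0.38 when scaled to all reads. GGPS1, which makes geranylgeranyl diphosphate, differed by -0.44 in all reads (edgeR adjusted p = 0.0789), a call gained without DMSO replicate 3 (0.0376) or PladB replicate 1 (0.00508).

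Among the squalene enzymes, FDFT1, the squalene synthase and the entry into sterol synthesis proper, rose in T>C reads. It stood at 352, 320 and 568 CPM of T>C reads in DMSO and at 622, 740 and 909 in PladB. The groups did not overlap, and the log2 change was 0.87 (SE 0.25, edgeR adjusted p = 0.0164). Leaving out DMSO replicate 1 (0.0765), DMSO replicate 2 (0.103) or PladB replicate 3 (0.0805) ended the call, as did fitting only the 2 groups (0.0669). Scaled to all reads, the change was 0.07 (adjusted p = 0.883). Its labelled share of 9.56%, 8.24% and 12.3% in DMSO and 8.10%, 8.47% and 11.2% in PladB overlapped. SQLE, the squalene epoxidase, stood at 21.1, 18.5 and 19.6 CPM in DMSO and at 15.8, 19.2 and 22.1 in PladB in all reads, which overlap. SQLE T>C reads numbered 58, 0 and 51 in DMSO and 0, 0 and 6 in PladB, and the test in T>C reads was not passed (edgeR adjusted p = 0.417). LSS, the lanosterol synthase, differed by -0.18 in all reads (edgeR adjusted p = 0.652).

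In the steps from lanosterol to cholesterol, 3 of 9 enzymes rose and 1 fell in all reads. MSMO1, a methylsterol oxidase (chr4:166263099-166264316, hg19, plus strand), stood at 184, 202 and 162 CPM in DMSO and at 263, 225 and 304 in PladB. Every PladB library was above every DMSO library, a log2 change of 0.53 (SE 0.12, edgeR adjusted p = 0.000903). In T>C reads MSMO1 stood at 169, 239 and 235 CPM in DMSO and at 553, 448 and 692 in PladB. That rise of 1.39 (SE 0.28, edgeR adjusted p = 0.000575) was the largest of any member called in T>C reads and stayed called without any of the 6 libraries, between 1.22 and 1.54. Scaled to all reads it was 0.60 and did not pass (adjusted p = 0.134). The labelled share of MSMO1 was 8.98%, 10.8% and 13.9% in DMSO and 11.8%, 11% and 12% in PladB. The groups overlapped, and 33.6% of genes lay wholly below DMSO in this measure. The log2 odds of T>C changed by 0.07 for MSMO1, where the median over all genes was -1.30.

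CYP51A1 and EBP rose in all reads as well. CYP51A1, the lanosterol demethylase, stood at 242, 246 and 246 CPM in DMSO and at 316, 341 and 348 in PladB, apart by more than the spread within either group. Its log2 change was 0.45 (SE 0.11, edgeR adjusted p = 0.00122), while its T>C difference of 0.75 did not pass (0.171) and turned to -0.04 when scaled to all reads. EBP, a sterol isomerase, stood at 102, 121 and 123 CPM in DMSO and at 152, 158 and 162 in PladB. The groups did not overlap, and the log2 change was 0.45 (SE 0.13, edgeR adjusted p = 0.00688), a call lost without DMSO replicate 1 (0.0650). EBP T>C reads differed by 0.97 (adjusted p = 0.161), a call gained without PladB replicate 2, the PladB library with the fewest EBP T>C reads (1.35, 0.0183).

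LBR, a sterol reductase that also anchors lamin B at the inner nuclear membrane (chr1:225589204-225591004, hg19, minus strand), fell in all 3 measures. In all reads it stood at 112, 101 and 106 CPM in DMSO and at 76.8, 43.9 and 77.1 in PladB, without overlap. The log2 change was -0.68 (SE 0.16, edgeR adjusted p = 0.000915), called without any of the 6 libraries, between -0.82 and -0.47. LBR T>C reads stood at 161, 93.8 and 133 CPM in DMSO and at 37.7, 40.1 and 48.4 in PladB, again without overlap. The T>C change was -1.62 (SE 0.50, edgeR adjusted p = 0.0290), lost without DMSO replicate 1 (0.129), DMSO replicate 3 (0.0737) or PladB replicate 1 (0.0728) and with only the 2 groups in the fit (0.0796). Its labelled share was 14.1%, 8.50% and 12.1% in DMSO and 2.75%, 5.03% and 3.31% in PladB. The log2 odds changed by -1.78 (SE 0.52, edgeR adjusted p = 0.0432), which did not pass without DMSO replicate 1 (0.146), 2 (0.0589) or 3 (0.119) or PladB replicate 1 (0.104) or 3 (0.0941), with the replicate block (0.0678), with no filter on low counts (0.0543) or with plain sums of intervals (0.0521).

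TM7SF2, which shares its reductase step with LBR, and DHCR7, the reductase of 7-dehydrocholesterol, fell in labelled share and not in all reads. TM7SF2 had a labelled share of 0.159%, 1.20% and 1.09% in DMSO and 0.0358%, 0.103% and 0.0732% in PladB, from 4, 26 and 32 T>C reads against 1, 3 and 2. All PladB libraries were lower, and the log2 odds changed by -3.27 (SE 0.79, edgeR adjusted p = 0.0184), lost without DMSO replicate 2 (0.0690) or 3 (0.0761). In all reads TM7SF2 stood at 142, 139 and 176 CPM in DMSO and at 156, 215 and 199 in PladB, which overlap (log2 difference 0.32, adjusted p = 0.0594, a call gained without DMSO replicate 3, 0.0189, or PladB replicate 1, 0.0164, with DESeq2 size factors, 0.0462, and with no filter on low counts, 0.0482). DHCR7 had a labelled share of 11.2%, 7.24% and 6.04% in DMSO and 0.850%, 4.01% and 1.04% in PladB. Its log2 odds changed by -2.43 (SE 0.55, edgeR adjusted p = 0.0133), lost without DMSO replicate 1 (0.0574). In all reads DHCR7 stood at 133, 139 and 157 CPM in DMSO and at 157, 173 and 154 in PladB, which overlap. NSDHL, HSD17B7 and SC5D, which complete the set, passed no test, with all-read differences of -0.30, -0.35 and -0.28.

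In the sterol control genes, SREBF2 and SCAP rose in all reads and INSIG2 fell. SREBF2, which encodes the SREBP most active on cholesterol genes, stood at 148, 207 and 130 CPM in DMSO and at 227, 222 and 203 in PladB. DMSO replicate 2 lay above the lowest PladB library, and the log2 change was 0.43 (SE 0.13, edgeR adjusted p = 0.0112), lost without DMSO replicate 1 (0.0680) or 3 (0.126). SCAP stood at 181, 139 and 145 CPM in DMSO and at 211, 194 and 213 in PladB. The groups did not overlap, and the log2 change was 0.41 (SE 0.13, edgeR adjusted p = 0.0144), lost without DMSO replicate 2 (0.0662) or 3 (0.0619). INSIG2 (chr2:118865899-118867607, hg19, plus strand) had 56, 141 and 73 reads in the DMSO libraries and 5, 30 and 16 in the PladB libraries, or 3.15, 9.03 and 4.35 CPM against 0.278, 2.21 and 1.16. The PladB libraries were all lower and the log2 change was -2.18 (SE 0.84, edgeR adjusted p = 0.0448), lost without DMSO replicate 2 (0.215), DMSO replicate 3 (0.0555), PladB replicate 1 (0.163) or PladB replicate 3 (0.0908) and with only the 2 groups in the fit (0.125).

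SREBF1, INSIG1 and STARD4 passed no test. SREBF1, which encodes the SREBP most active on fatty acid genes, stood at 47.2, 31.3 and 36.1 CPM in DMSO and at 41.3, 40.7 and 35.0 in PladB in all reads. Those levels overlap, as do its T>C levels of 35.1, 7.70 and 21.2 CPM against 27.8, 1.34 and 23.5. INSIG1 stood at 92.2, 120 and 99.2 CPM in DMSO and at 91.6, 84.7 and 101 in PladB in all reads, a log2 difference of -0.17 (95% interval -0.45 to 0.12). INSIG1 T>C reads stood at 179, 138 and 184 CPM in DMSO and at 151, 297 and 245 in PladB, a difference of 0.46 that became -0.34 when scaled to all reads. STARD4, a carrier of sterol between membranes, differed by -0.24 in all reads.

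In fatty acid synthesis, ACLY, FASN and SCD rose in all reads by small amounts. ACLY, which makes cytosolic acetyl-CoA from citrate (chr17:40023170-40024062, hg19, minus strand), stood at 336, 304 and 301 CPM in DMSO and at 433, 385 and 359 in PladB. The groups did not overlap, and the log2 change was 0.32 (SE 0.10, edgeR adjusted p = 0.0129), lost without DMSO replicate 3 (0.0514) or PladB replicate 1 (0.128). Its labelled share ran the other way, at 5.84%, 5.84% and 2.04% in DMSO and 1.02%, 1.66% and 0.507% in PladB. That change in log2 odds was -2.14 (SE 0.58, edgeR adjusted p = 0.0302), lost without DMSO replicate 1 (0.114) or 2 (0.101) or PladB replicate 1 (0.0562) or 3 (0.0905). Its T>C level differed by -1.0 (adjusted p = 0.206), and by -1.78 when scaled to all reads (0.0103).

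FASN, the fatty acid synthase, stood at 497, 506 and 428 CPM in DMSO and at 567, 630 and 513 in PladB. Every PladB library was higher, but the log2 change of 0.26 (SE 0.10, edgeR adjusted p = 0.0434) was lost without DMSO replicate 1 (0.0584) or 3 (0.218), without PladB replicate 1 (0.0932) or 2 (0.264), with only the 2 groups in the fit (0.0749) and with plain sums of intervals (0.0604). SCD, the desaturase that makes oleate, stood at 245, 215 and 217 CPM in DMSO and at 301, 272 and 270 in PladB. Its groups did not overlap, and the log2 change was 0.32 (SE 0.11, edgeR adjusted p = 0.0199), lost without DMSO replicate 2 (0.0578) or 3 (0.0706) or PladB replicate 1 (0.125). ACACA, which makes malonyl-CoA, stood at 72.8, 58.2 and 58.1 CPM in DMSO and at 61.3, 77.4 and 62.6 in PladB, which overlap (log2 difference 0.09). The fatty acid elongase ELOVL6 differed by 0.03 in all reads.

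**Figure D3:**
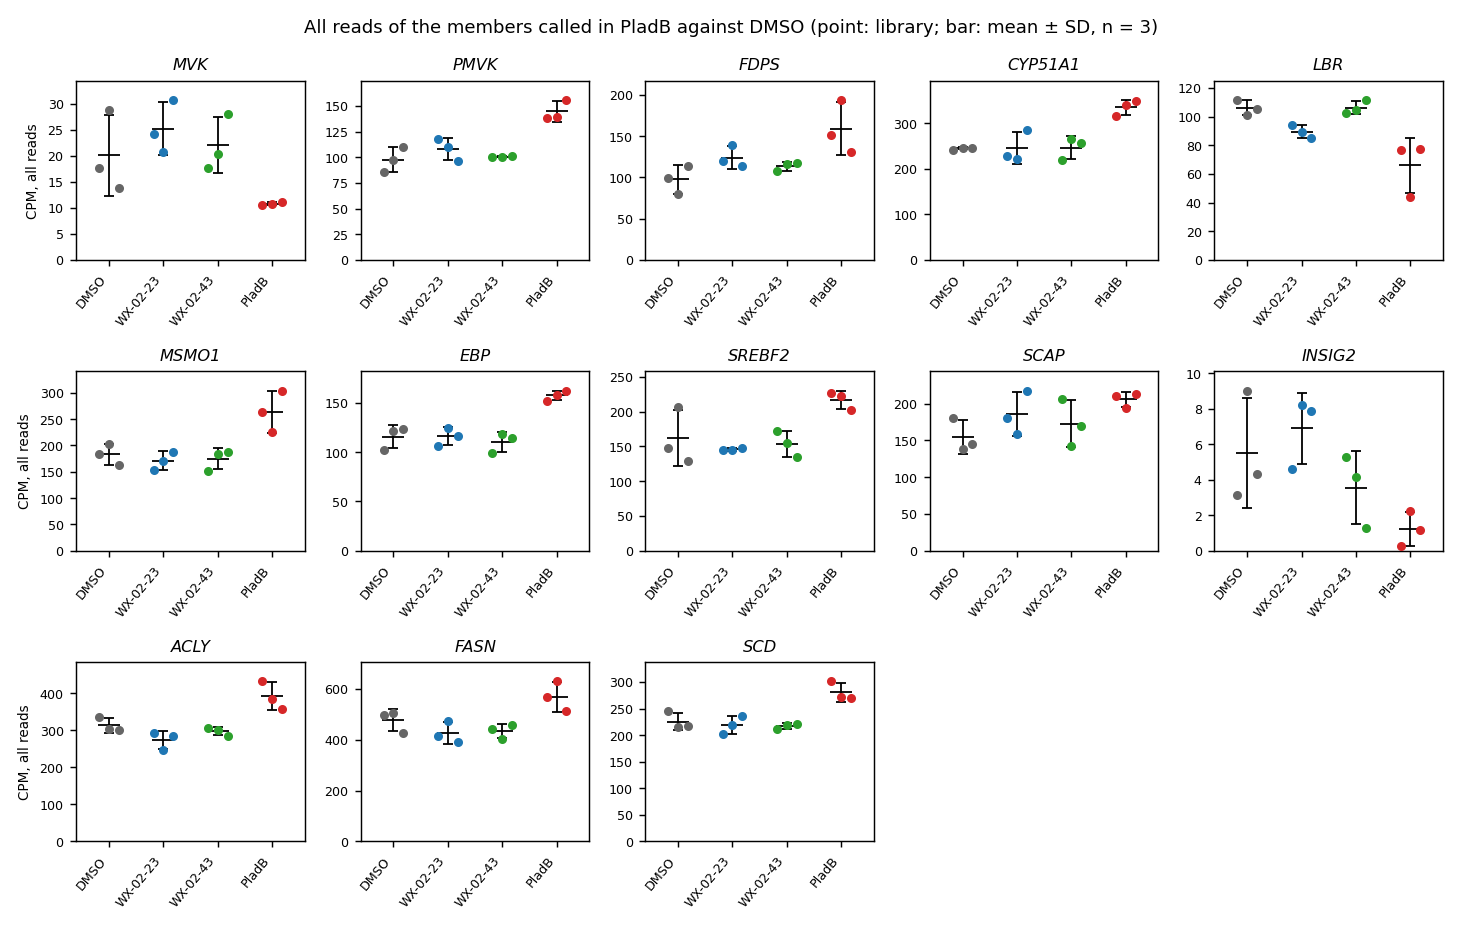
All reads in CPM (vertical axis, from 0) of the 13 members called in PladB against DMSO, in the 4 groups; points are libraries and bars the mean ± SD of 3. PladB stands apart from DMSO in each panel but that of SREBF2, where the highest DMSO library, at 207, lies among the PladB libraries at 203 to 227.

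After WX-02-23, the edgeR test called no member against DMSO in all reads, T>C reads or labelled share. The background was low too: 0.425% of genes rose and 0.273% fell in all reads, 0.168% and 0.0560% in T>C reads, and 0.00933% and 0.0% in labelled share. Libraries did not overlap with DMSO for 2 members above and 2 below in all reads (6.89% and 6.96% of genes), 6 and 0 in T>C reads (6.23% and 5.75%) and 6 and 2 in labelled share (5.96% and 5.34%). At an unadjusted p under 0.05, 3 of 31 members differed in all reads (9.68%) and 3 of 30 in T>C reads, where 8.70% and 4.53% of genes did. DESeq2 called 0 members in all reads and 1 in T>C reads, ELOVL6, against 157 of 6791 and 73 of 1992 genes to which it gave an adjusted p (2.31% and 3.66%). The members' median log2 difference was 0.03 in all reads and 0.39 in T>C reads, against 0.00 for all genes in both, and the T>C median moved between 0.04 and 0.40 as single libraries were left out, lowest without WX-02-23 replicate 2. Their summed labelled share was 7.20%, 8.25% and 7.09% in WX-02-23, 7.51% ± 0.642, so that its lowest library was just above the highest DMSO library, at 7.06%. The share of all coding reads in WX-02-23 was 9.64% ± 0.218.

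ELOVL6, which lengthens palmitate (chr4:110970229-110972493, hg19, minus strand), had the largest T>C difference relative to its error. It stood at 65.7, 65.8 and 108 CPM of T>C reads in DMSO, at 269, 242 and 165 in WX-02-23 and at 144, 154 and 178 in WX-02-43. Both stereoprobe groups lay wholly above DMSO. The log2 difference after WX-02-23 was 1.5 (95% interval 0.71 to 2.28) and did not pass edgeR (adjusted p = 0.148), while DESeq2 gave an adjusted p of 0.000298; edgeR adjusted p ran from 0.107 to 0.697 with 1 library left out. After WX-02-43 it was 0.99 (95% interval 0.21 to 1.77, edgeR adjusted p = 1). Its labelled share was 4.70%, 4.17% and 6.76% in DMSO, 16%, 17.4% and 11.1% in WX-02-23 and 9.91%, 9.12% and 12.8% in WX-02-43. All reads of ELOVL6 did not separate, with 137, 144 and 152 CPM in DMSO, 161, 129 and 144 in WX-02-23 and 137, 148 and 123 in WX-02-43.

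INSIG1, a sterol-responsive gene itself, stood at 256, 295 and 241 CPM of T>C reads in WX-02-23, all above the 3 DMSO libraries given above, and at 268, 210 and 176 in WX-02-43, which overlap with them. The log2 differences were 0.66 (95% interval 0.02 to 1.29) and 0.38 (-0.25 to 1.02), neither called. SCAP stood at 96.2, 34.3 and 87.2 CPM of T>C reads in DMSO and at 36.1, 16.6 and 18.3 in WX-02-23, a difference of -1.61 (95% interval -3.05 to -0.17, edgeR adjusted p = 1) in overlapping groups. The labelled share of SCAP was 5.20%, 2.26% and 5.77% in DMSO, 1.91%, 0.963% and 0.809% in WX-02-23 and 3.67%, 4.18% and 2.30% in WX-02-43. WX-02-23 was wholly below DMSO there, with a change in log2 odds of -1.88 that was not called (edgeR adjusted p = 0.868). SREBF1 stood at 41.7, 80.4 and 59.2 CPM of T>C reads in WX-02-23 and at 18.4, 44.3 and 31.2 in WX-02-43, a difference of 1.49 from DMSO for the former (95% interval -0.59 to 3.58). SREBF2 in all reads stood at 145, 144 and 148 CPM in WX-02-23 and at 172, 155 and 135 in WX-02-43, within the DMSO range of 130 to 207.

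**Figure D4:**
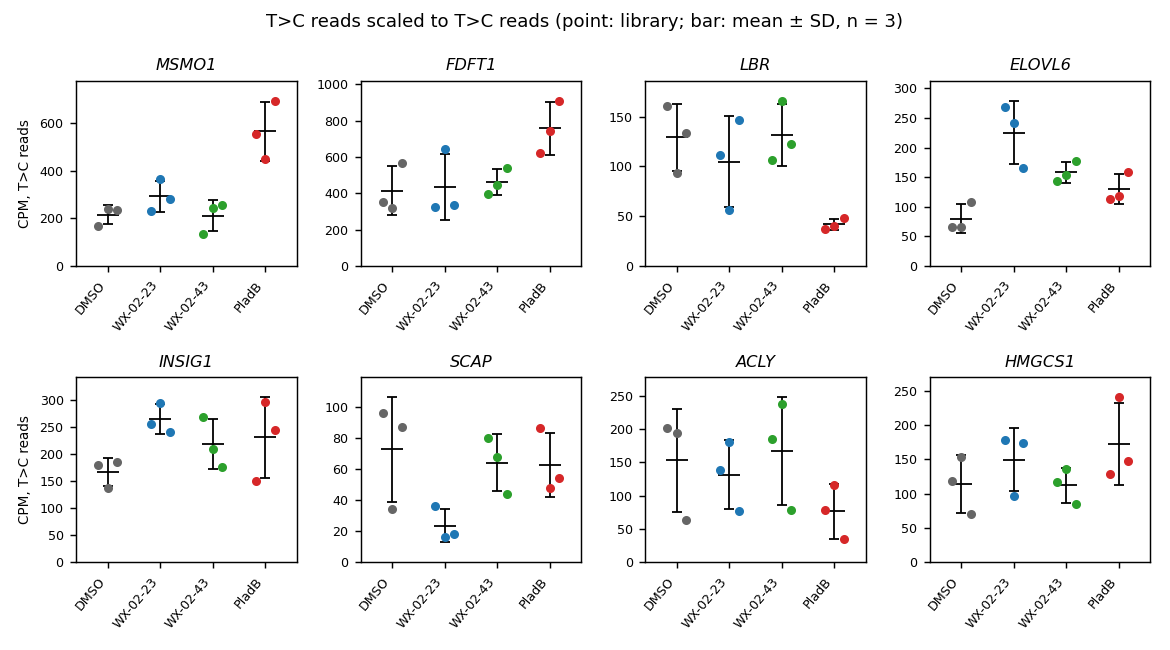
T>C reads in CPM of T>C reads (vertical axis, from 0) of 8 members in the 4 groups; points are libraries and bars the mean ± SD of 3. MSMO1 and FDFT1 are high and LBR is low in PladB, and ELOVL6 is above DMSO in each treated group; scaled to all reads, ELOVL6, HMGCS1 and INSIG1 are not higher in PladB.

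In all reads WX-02-23 gave unadjusted differences in HMGCS1, ACACA and FDPS. HMGCS1 stood at 204, 210 and 206 CPM, above all DMSO libraries, by 0.30 on the log2 scale (95% interval 0.07 to 0.53, edgeR adjusted p = 0.336). ACACA stood at 83.5, 83.1 and 80.9 CPM, above DMSO by 0.39 (95% interval 0.06 to 0.72, edgeR adjusted p = 0.437). FDPS stood at 120, 139 and 113 CPM and overlapped DMSO, with a difference of 0.34 (edgeR adjusted p = 0.437). ACLY and LBR lay wholly below DMSO, by -0.19 (edgeR adjusted p = 0.628) and -0.25 (0.737), with ACLY at 293, 247 and 285 CPM and LBR at 93.9, 89.4 and 84.7. FASN stood at 415, 476 and 393 CPM, SCD at 203, 218 and 236 and IDI1 at 100, 117 and 96.3. SQLE stood at 10.5, 27.1 and 24.1 CPM and SREBF1 at 42.4, 30.1 and 43.7. Each of these 5 overlapped DMSO. The labelled share of TM7SF2, low in DMSO, was 2.84%, 1.95% and 2.07% in WX-02-23, above all DMSO libraries, with a difference in log2 odds of 1.68 that was not called (95% interval 0.35 to 3.02, edgeR adjusted p = 1). That of FDPS was 0.0374%, 0.441% and 0.104% in WX-02-23, below all DMSO libraries at 1.41%, 0.485% and 1.46%, with a difference of -2.69 (95% interval -5.02 to -0.37, edgeR adjusted p = 1) that rests on 1, 8 and 2 T>C reads. At an unadjusted p under 0.05, 5 of 30 members differed in labelled share (16.7%), as did 360 of 10722 genes (3.36%); none of the 5 was called.

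WX-02-43 was compared with the same DMSO libraries. The edgeR test called 0 of 31 members in all reads and 0 of 30 in T>C reads and in labelled share, where 0.0986% of genes rose and 0.0683% fell in all reads, 0.0466% and 0.0466% (0.0933% together) in T>C reads, and 0.0% in labelled share either way. Libraries did not overlap with DMSO for 0 members above and 1 below in all reads (6.25% and 5.68% of genes), 3 and 0 in T>C reads (6.57% and 5.36%) and 2 and 0 in labelled share (5.14% and 6.38%). At an unadjusted p under 0.05, 0 members differed in all reads, 2 in T>C reads and 2 in labelled share, where 5.86%, 3.81% and 3.11% of genes did. DESeq2 called 0 members in all reads or T>C reads, against 53 of 4747 and 51 of 8828 genes with an adjusted p. The 2 members were ELOVL6 and ACAT2 in both measures, the latter at 31.7, 9.10 and 39.3 CPM of T>C reads in DMSO and at 133, 79.9 and 77.4 in WX-02-43. ACAT2 was above DMSO in WX-02-23 as well, at 62.8, 54.7 and 113. Its differences of 1.85 (95% interval 0.31 to 3.40) and 1.52 (-0.01 to 3.06) rest on 13 to 63 T>C reads a library in DMSO. The summed labelled share was 6.80%, 6.88% and 6.83% in WX-02-43, 6.84% ± 0.0411, within the DMSO range. T>C reads of the members carried 2.30 ± 0.232 conversions each in WX-02-43, against 1.87 ± 0.0839 in WX-02-23, 1.74 ± 0.0451 in DMSO and 1.45 ± 0.0813 in PladB. Over all coding genes the order was the same, at 2.41 ± 0.00391, 1.99 ± 0.00991, 1.81 ± 0.0350 and 1.38 ± 0.0310. The percentage of sequenced T positions of the members that were converted was 0.589% to 0.712% in WX-02-43, wholly above DMSO at 0.399% to 0.494%, where the labelled share was not. Over all coding genes that percentage was 0.913% ± 0.0364 and 0.706% ± 0.0245.

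In all reads after WX-02-43 the members' median difference from DMSO was -0.03, against 0.00 over all genes. FASN stood at 442, 405 and 457 CPM, SCD at 211, 220 and 222 and ACACA at 75.8, 60.8 and 87.5. IDI1 stood at 87.5, 91.2 and 108 CPM, SQLE at 23.8, 21.3 and 20.4 and SREBF1 at 34.1, 48.1 and 39.3. INSIG1 stood at 92.7, 116 and 101 CPM in WX-02-43 and at 116, 126 and 133 in WX-02-23. Each of these 7 genes overlapped DMSO in WX-02-43, and HMGCS1, described next, was the member that lay wholly below it. MSMO1, CYP51A1 and INSIG2, which PladB changed, were not called after either stereoprobe. MSMO1 stood at 153, 171 and 188 CPM in WX-02-23 and 152, 184 and 188 in WX-02-43, with differences from DMSO of -0.10 (95% interval -0.35 to 0.15) and -0.07 (-0.32 to 0.18). CYP51A1 differed by 0.00 (95% interval -0.22 to 0.22) and 0.01 (-0.21 to 0.23). INSIG2 had 103, 107 and 134 reads in WX-02-23 and 85, 70 and 21 in WX-02-43, too few to bound its difference closely (-1.28 to 1.92 and -2.24 to 0.98). In T>C reads MSMO1 stood at 232, 363 and 279 CPM in WX-02-23 and 135, 241 and 254 in WX-02-43, FDFT1 at 326, 646 and 338 and 399, 449 and 537, and LBR at 111, 56.4 and 147 and 106, 166 and 123, all overlapping DMSO.

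**Figure D5:**
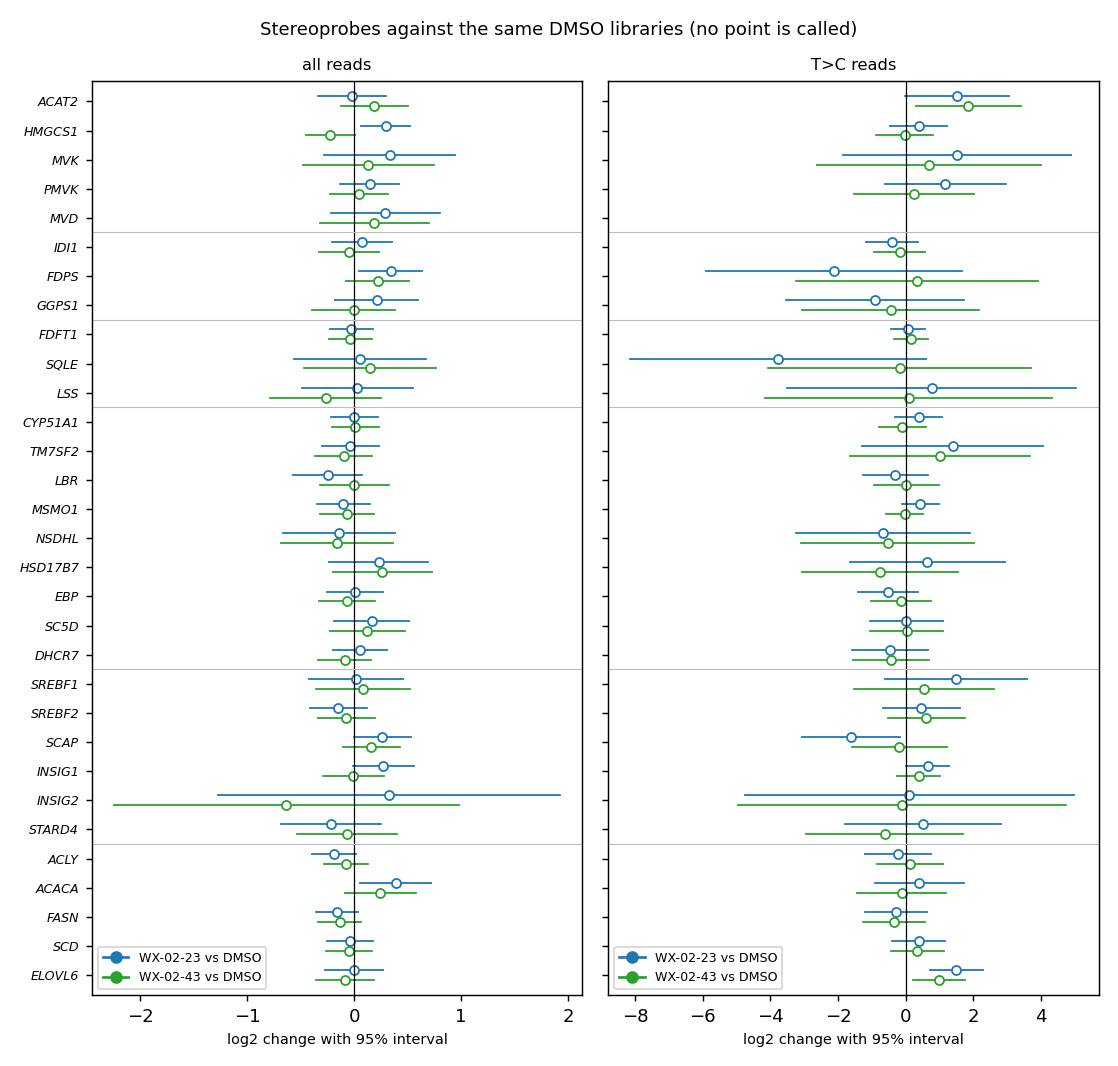
Log2 difference from DMSO with its 95% interval (horizontal axis) for each member after WX-02-23 (blue) and WX-02-43 (green), in all reads and T>C reads; the comparisons share their DMSO libraries. No point passed the edgeR test, and the intervals in T>C reads are several log2 units wide for members with few T>C reads, such as SQLE, LSS and INSIG2.

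The 2 stereoprobes had the same dose and time, and this was the only pair of compounds compared. HMGCS1, which makes HMG-CoA for the mevalonate steps (chr5:43287572-43291232, hg19, minus strand), was the member that differed between them by the edgeR test, in all reads. It stood at 204, 210 and 206 CPM in WX-02-23 and at 155, 139 and 138 in WX-02-43, on either side of DMSO at 171, 177 and 157. The ranges of the 2 compounds did not meet. The log2 difference was 0.52 (SE 0.11, 95% interval 0.29 to 0.75, adjusted p = 0.0317), and it ran from 0.50 to 0.58 with 1 library left out. The call was lost without any 1 of the 6 libraries (WX-02-23 replicate 1, 0.129, 2, 0.183, or 3, 0.164, and WX-02-43 replicate 1, 0.0782, 2, 0.283, or 3, 0.252) and with plain sums of intervals (0.0761). This was 1 of 31 members higher in WX-02-23 (3.23%), against 0.121% of genes higher and 0.0304% lower. The same share of members, 1 of 31, had an unadjusted edgeR p under 0.05 in all reads, where 5.52% of genes did. DESeq2 called 1 member in all reads, also HMGCS1, where it called 35 of 10367 genes with an adjusted p (0.338%). The libraries of the 2 compounds did not overlap for 3 members higher and 1 lower in WX-02-23 in all reads (6.18% and 6.51% of genes), 2 and 3 in T>C reads (5.33% and 5.37%) and 5 and 3 in labelled share (6.04% and 4.5%).

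The T>C levels of HMGCS1 overlapped between the compounds. It stood at 178, 97.0 and 174 CPM of T>C reads in WX-02-23 and at 117, 136 and 84.8 in WX-02-43, with DMSO at 119, 154 and 70.4 and PladB at 129, 241 and 148. The log2 difference between the stereoprobes was 0.41 (95% interval -0.43 to 1.26). No member was called between them in T>C reads or labelled share, where 0.0373% of genes were higher and 0.00933% lower in WX-02-23 in T>C reads, and 0.0% in labelled share. At an unadjusted p under 0.05, 0 members differed in T>C reads and 3 in labelled share (SCAP, FDPS and MSMO1), where 2.85% and 2.78% of genes did. DESeq2 called 0 members in T>C reads, against 25 of 1576 genes with an adjusted p. The width of the all-read intervals varied over the other members. For FASN the difference was -0.02 (95% interval -0.22 to 0.17), for SCD 0.01 (-0.20 to 0.23), for FDFT1 0.01 (-0.19 to 0.21) and for INSIG1 0.28 (-0.01 to 0.56). For SQLE the interval ran from -0.70 to 0.52 and for INSIG2 from -0.66 to 2.57. ELOVL6 T>C reads differed by 0.51 (95% interval -0.26 to 1.28).

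Genes around the pathway, from 4 lists chosen with earlier results known, showed PladB changes in both directions and no call after either stereoprobe, in all reads, T>C reads or labelled share. Of 12 genes of SREBP processing and sterol-regulated degradation, 1 rose and 2 fell in all reads after PladB, against 13.9% and 16.3% of genes. The ubiquitin ligase SYVN1 changed by -1.68 (edgeR adjusted p = 5.28e-08) and VCP, an ATPase that extracts proteins from membranes, by 0.25. Of 15 tested genes of sterol uptake, transport and LXR response, 2 rose and 5 fell. NPC1, which exports cholesterol from lysosomes, changed by -1.91. MYLIP, a ubiquitin ligase induced by LXR, changed by 1.28, OSBPL2 by -1.0, STARD3 by -0.82 and OSBP, a carrier of oxysterol, by -0.70. The median of that list was -0.33, against -0.07 over all genes. Of 11 genes that use isoprenoids, FNTA, a subunit of the protein prenyltransferases, changed by -1.25 and ICMT by -0.36, and 0 rose; without DMSO replicate 1, DMSO replicate 2 or PladB replicate 1, 1 of them was called. Of 22 genes of fatty acid activation, elongation and lipid assembly, 5 rose and 4 fell, 5 in all without DMSO replicate 3. LPIN1, a phosphatidate phosphatase, changed by -1.30, MLXIP by -1.01, GPAM by -0.92, DGAT1 by 0.88 and the citrate carrier SLC25A1 by 0.54. In T>C reads after PladB, LPIN1 changed by -3.12 (edgeR adjusted p = 0.0312), 1 call among the 51 genes of the 4 lists tested there. Over all genes, 4.72% rose and 5.91% fell in T>C reads. The LPIN1 call was lost without DMSO replicate 3 or PladB replicate 1. In labelled share 6 of the 51 fell and 0 rose, against 11.0% and 0.0280% of genes.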

How the data were processed

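SLAM-seq counts of 3' UTR intervals in 12 libraries were analysed. Per the file headers, the deposited count columns (reads and T>C reads per interval) were made with slamdunk 0.4.3. The genome was hg19, per the submitters' processing notes, and the read filters are not given in the sources used here. The deposited CPM column, scaled to sequencing depth per the file headers, served only to recover library totals of 24670716 to 42190854. Coding intervals were summed by gene, keeping the interval with most reads where a gene's intervals overlap. edgeR 4.0.16 (R 4.3.3) fitted all 4 groups on the raw counts with TMM scaling, its filter on low counts and Benjamini-Hochberg adjustment over all genes tested, calling at an adjusted p under 0.05. The labelled share was fitted as the odds of T>C against other reads, with a term per library, in edgeR. CPM in the text was computed from the coding counts, or the coding T>C counts, over TMM-scaled library sizes. Scripts were tested on simulated data. Alternatives were DESeq2 1.42.0, its size factors, no filter, plain sums, only the 2 groups compared, scaling of T>C reads to all reads, a replicate block and each library left out. The members and lists were chosen with earlier results of these data known. Values in every library are given for each called member and for INSIG1, SREBF1, SREBF2, HMGCS1, IDI1, SQLE, FASN, SCD and ACACA; from the other lists at most 5 called genes each are named, by size of change. ACAT2, SCAP and ELOVL6 T>C values were added after their values were seen. Some genes of the marker and pathway lists are not reported here.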

Additional observations from a re-analysis of the deposited data

How the results depend on the processing

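Few T>C reads per gene limit the T>C and labelled-share tests, intervals cover counting and library spread only, and replicate independence is not stated. For PladB against DMSO, member calls with 1 library left out ran from 9 to 12 in all reads (13 with all libraries), 1 to 5 in T>C reads (3) and 1 to 5 in labelled share (4), and the T>C count was 1 with only the 2 groups. CYP51A1 in T>C reads changed sign from 0.75 to -0.0408 when scaled to all reads, by the scaling itself. The call of HMGCS1 between the stereoprobes went to 0 with plain sums and ran from 0 to 0 with 1 library left out. DESeq2 called 1 member in T>C reads after WX-02-23, against 0. The summed labelled share of the members differed by -2.75 to -2.05 percentage points in PladB, 0.481 to 1.18 in WX-02-23 and 0.304 to 0.886 between the stereoprobes with 1 library left out; for WX-02-43 it ran from -0.192 to 0.509, negative without DMSO replicate 2.

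Around the pathway, T>C calls after PladB were 0 to 2 for SREBP processing with 1 library left out. For sterol uptake they were 0 to 1 with 1 library left out, 1 with DESeq2 size factors, DESeq2 or no filter, and 2 when scaled to all reads, against 0. For isoprenoid use they were 0 to 1, 1 with DESeq2 or no filter and 2 when scaled, against 0. For lipid assembly they were 0 to 1, 2 with DESeq2, 0 with only the 2 groups or plain sums and 4 when scaled, against 1. In all reads they ran from 2 to 3, 5 to 7, 1 to 2 and 5 to 9 for the 4 lists in that order, and isoprenoid use had 1 with DESeq2 size factors, DESeq2, only the 2 groups or plain sums, against 2. The causes were not tested. Replicate numbers did not pair the libraries (correlations of same-numbered deviations from -0.0615 to 0.0574 in all reads). With the replicate block, PladB called 13 members in all reads, 3 in T>C reads and 4 in labelled share, without LBR (edgeR adjusted p = 0.0678), sterol uptake had 1 T>C call and isoprenoid use 1 call in all reads.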
